A study of Mus musculus with 14 samples.

Results

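Stat3 and 8 genes of its signalling chain were followed across 14 RNA-seq libraries of full-grown mouse oocytes, out of 20337 genes with a symbol in the count files. The set comprised the transcription factors Stat3, Stat5a and Stat5b, the kinases Jak1 and Jak2, the receptor chains Il6st and Lifr, and the inhibitors Socs3 and Pias3. Stat3 was picked because its level was high in the mutants, so its own mutant-to-control differences are given below as a description without a test. The other 8 genes were listed for their place in the pathway. The files hold 17 RefSeq transcripts of the 9 genes, and for each gene the transcript with the highest mean count was used.

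The libraries came from germinal vesicle-intact oocytes of eCG-primed females of 4 to 6 weeks, collected enclosed in cumulus cells whose removal is not described in the sources used here, with 20 oocytes pooled from 3 or 4 mice in each library. The 3 Ago2 fl/fl libraries were from females homozygous for a floxed Ago2 allele without Cre. The 3 Ago2 ADH libraries were from females with a floxed allele over a knock-in allele that binds small RNAs but cannot cleave their targets, in which Cre driven by the Zp3 promoter removed the floxed copy in growing oocytes. The 2 Ago2 null libraries were from floxed females with Zp3-Cre, and the Dicer set held 3 WT and 3 KO libraries, the latter with an oocyte-specific Dicer deletion. Zp3-Cre acts in the growing oocyte, so RNA and protein made earlier can persist, and pooling of mice means that the spread between libraries is not a spread between animals. The names of the deposited data carry what reads as a lane tag, which no label explains, and in the Ago2 set it differs between genotypes and not within them, so that any effect of it and of genotype cannot be told apart.

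Stat3 is a transcription factor that waits in the cytoplasm. Cytokines of the interleukin-6 family, Lif among them, bind receptors built around Il6st, the signal-transducing chain, and the Jak kinases held by these receptors phosphorylate Stat3, which then dimerizes, enters the nucleus and binds DNA. Socs3, a target of Stat3, closes a feedback loop at the receptor, and Pias3 binds Stat3 and blocks its access to DNA. In mouse embryonic stem cells this chain sustains self-renewal downstream of Lif. RNA levels do not report on phosphorylation or on the amount of protein.

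The genes Stat5b, Stat5a and Stat3 lie side by side on chromosome 11. In RefSeq on GRCm38 (the mm10 build) Stat5a spans chr11:100859351-100885169 on the plus strand and Stat3 spans chr11:100886806-100939594 on the minus strand, so that their 3′ ends face each other across 1636 bases. GENCODE M21 extends Stat3 further, and there the ends share 72 bases. The RefSeq promoter windows, which run from 250 bases before to 50 bases after an annotated start, are shown for 3 genes because Stat3 and Stat5a were both higher in every mutant and because Socs3 is the classical Stat3 target in the set. The capitals mark TTCNNNGAA, the palindrome that Stat dimers recognize.

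Stat3, chr11:100939491-100939790, minus strand: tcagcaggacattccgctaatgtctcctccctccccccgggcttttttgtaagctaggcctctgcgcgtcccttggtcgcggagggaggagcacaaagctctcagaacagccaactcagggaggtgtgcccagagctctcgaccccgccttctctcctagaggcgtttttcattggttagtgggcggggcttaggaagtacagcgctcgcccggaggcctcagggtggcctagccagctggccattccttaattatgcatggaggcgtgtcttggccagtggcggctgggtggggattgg
Stat5a, upstream start, chr11:100859406-100859705, plus strand: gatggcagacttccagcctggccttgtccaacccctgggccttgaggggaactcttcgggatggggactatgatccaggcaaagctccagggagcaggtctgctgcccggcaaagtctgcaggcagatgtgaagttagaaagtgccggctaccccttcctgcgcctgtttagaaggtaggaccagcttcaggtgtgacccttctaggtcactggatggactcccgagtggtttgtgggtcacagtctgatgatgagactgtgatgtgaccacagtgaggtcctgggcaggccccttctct
Stat5a, downstream start, chr11:100860234-100860533, plus strand: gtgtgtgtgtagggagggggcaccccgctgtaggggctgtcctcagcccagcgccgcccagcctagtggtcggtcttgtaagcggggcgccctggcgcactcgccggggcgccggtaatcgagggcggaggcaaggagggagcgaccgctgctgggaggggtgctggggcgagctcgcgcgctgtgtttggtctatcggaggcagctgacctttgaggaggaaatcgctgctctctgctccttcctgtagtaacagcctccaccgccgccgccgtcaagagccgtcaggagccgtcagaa
Socs3, chr11:117969317-117969616, minus strand: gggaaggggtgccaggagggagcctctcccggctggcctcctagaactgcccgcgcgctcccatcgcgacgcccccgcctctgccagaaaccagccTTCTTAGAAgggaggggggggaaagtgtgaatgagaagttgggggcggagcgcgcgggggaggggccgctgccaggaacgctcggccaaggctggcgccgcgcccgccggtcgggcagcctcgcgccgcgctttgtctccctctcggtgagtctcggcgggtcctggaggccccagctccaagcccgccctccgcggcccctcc

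Among the 13 windows of the 9 genes, the motif, which reads the same on both strands, occurred in the Socs3 window alone, at position -154 from the start site, and 12 windows did not hold it. It is present in 8.30% of all 32851 promoter windows of that length. The stricter TTCCNGGAA was in none of the 13 windows and in 1.15% of all. A match in letters is not a bound site, and the lack of a match says only that these letters are not in these windows.

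Depth ranged from 29380403 to 58285057 counts on transcripts per library, so that 3 counts corresponded to 0.0515 to 0.102 CPM, the count scaled to the library total. Levels are given as CPM scaled by TMM over all 14 libraries. Alignments that hit several places were set against all counts and tallies together. Their share was 33.2 to 34.6% in Ago2 fl/fl, 57.3 to 58.1% in Ago2 ADH and 57.0 to 58.3% in Ago2 null. It was 25.6 to 31.5% in Dicer WT and 44.4 to 49.5% in Dicer KO. Reads shared by transcripts of a gene can enter that total more than once, so this is not a share of reads. This tally moved with genotype, and its part in the results was not tested. The 10 oocyte markers summed to 10625 to 16186 CPM. In Ago2 ADH 5 of them were called higher and 2 lower at an FDR of 1%. In Ago2 null 5 were called higher and 1 lower, and in Dicer KO 1 higher and 2 lower. Of all transcripts 40.7, 37.2 and 34.5% were called. Nobox was called higher and Mos lower in all 3 mutants. Immune markers summed to at most 1.10 CPM. Of 2 blood and endothelium markers tested in each mutant, Kdr was called lower. Among the 15 granulosa and cumulus markers, Nr5a2 (group means of 28.6 to 38.5 CPM) and Cyp19a1 (21.8 to 54.6 CPM) made up most of the summed level. Foxl2 and Amh had group means of no more than 0.0856 and 0.153 CPM. The 15 markers summed to 57.8 to 104 CPM. This sum, led by Nr5a2 and Cyp19a1, was lower in each mutant group than in its control. Rarer markers moved both ways. From Ago2 fl/fl to Ago2 ADH, mean Fshr went from 0.869 to 0.259 CPM and mean Hsd17b1 from 0.299 to 0.743 CPM. Of the 15 markers, 10, 11 and 7 were tested in Ago2 ADH, Ago2 null and Dicer KO. At an FDR of 1%, 2, 1 and 2 of these were called, all lower. Of all transcripts 20.1, 19.1 and 17.8% were called lower, so these few calls say little about the cells. Inha had means of 0.753 CPM in Ago2 fl/fl and 1.44 CPM in Ago2 ADH (edgeR adjusted p = 0.0188). The 8 theca and stroma markers summed to 2.59 to 3.81 CPM in Ago2 fl/fl and to 4.02 to 9.72 CPM in Ago2 ADH. Of the 3 tested in Ago2 ADH, 1 was called higher and 1 lower, beside 20.5 and 20.1% of all transcripts. Cyp11a1, a steroidogenic enzyme, was the higher (log2 change 1.73, edgeR adjusted p = 2.20e-04). Its means were 1.41 CPM in Ago2 fl/fl and 4.54 CPM in Ago2 ADH, with 99 to 410 counts in the Ago2 ADH libraries. Pdgfra was the lower (log2 change -1.45, edgeR adjusted p = 0.00893). In Dicer KO Cyp11a1 was called lower (log2 change -2.91, edgeR adjusted p = 1.44e-04). The part of these cells in the results was not tested. Ago2 itself had log2 changes of -0.87 in Ago2 ADH and -1.95 in Ago2 null. It was also called lower in Dicer KO, where it was not targeted (log2 change -0.56, edgeR adjusted p = 5.45e-04). Dicer1 was 1.26 higher on the log2 scale in Dicer KO, a total over the whole gene that includes exons outside the deleted part and so does not check the deletion.

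Stat3 stood several-fold higher in the oocytes of all 3 mutants than in their controls. The counts for its transcript NM_213659 were 4116, 4221 and 3676 in the Ago2 fl/fl libraries. In Ago2 ADH they were 24627, 24354 and 19799, and in Ago2 null 24359 and 21975. No mutant library came near the controls, although mean total depth was lower in each mutant group than in its control.

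On the CPM scale Stat3 was at 70.7 ± 0.601 in Ago2 fl/fl (mean ± SD, n = 3). It was at 450.7 ± 6.51 in Ago2 ADH (n = 3), and at 427.0 ± 11.8 in Ago2 null (n = 2). In the Dicer set the counts were 3260, 3990 and 4183 in WT against 14107, 11770 and 14506 in KO, or 94.5 ± 8.77 CPM (SD, n = 3) against 430.4 ± 24.6 CPM (SD, n = 3). The WT level was thus somewhat above that of Ago2 fl/fl, whereas the 3 mutant groups ended close together. Other genes also differed between the controls of the 2 sets, in both directions. Gdf9 was at 5737 CPM in Ago2 fl/fl and 3396 CPM in Dicer WT, and Bmp15 at 1233 and 1679 CPM. The fitted change of Stat3 was 6.59-fold in Ago2 ADH (log2 2.72, SE 0.05), 6.17-fold in Ago2 null (log2 2.63, SE 0.06) and 4.55-fold in Dicer KO (log2 2.18, SE 0.07). Ordered by fold change from the highest, Stat3 took place 252 of 18835 transcripts tested in Ago2 ADH, 338 of 19236 in Ago2 null and 407 of 18570 in Dicer KO.

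The 3 Stat3 transcripts in the files could not be told apart. Counts of NM_213660 were 99.8 to 99.9% of those of NM_213659 in every library, and counts of NM_011486 were 99.4 to 99.8%. These transcripts share most of their exons and include the forms that encode the full-length and the shorter protein, so the files do not show which form carried the increase.

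**Figure D1:**
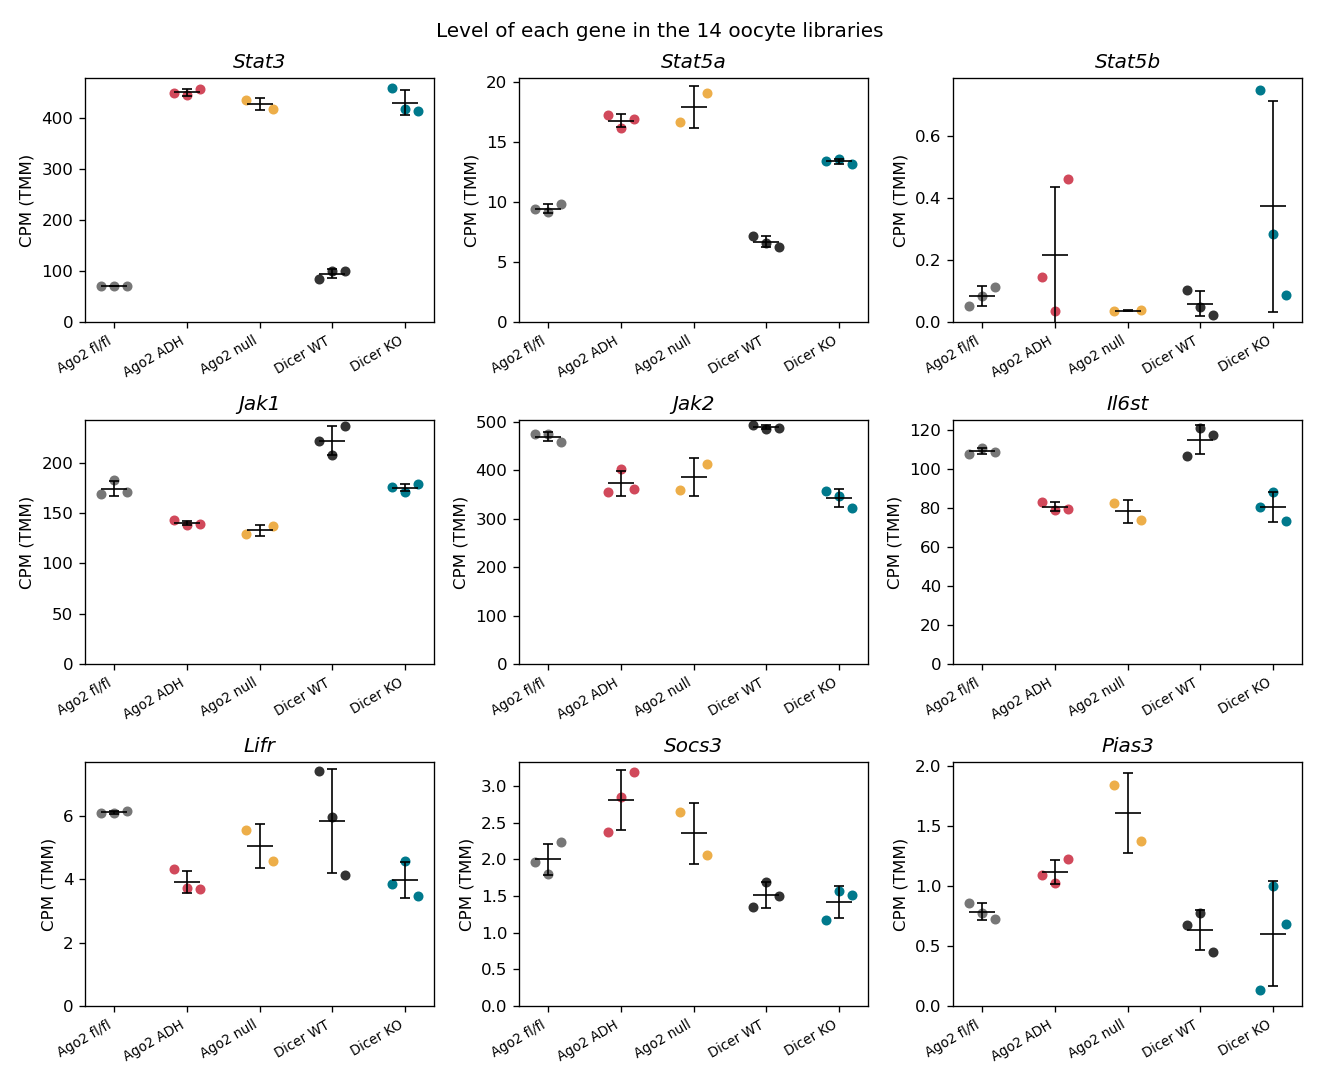
TMM-scaled CPM (vertical axis, starting at 0 in each panel) of the 9 genes by group (horizontal axis); each point is 1 library, and the bar and whiskers are the mean and SD. Stat3 was at 70.0 to 99.7 CPM in the control libraries and at 414.1 to 458.8 CPM in the mutant ones, and Stat5a separated likewise, whereas Jak1, Jak2 and Il6st sat lower in mutants than in their own controls.

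Outside Stat3, 7 of the 8 genes passed the filter on low counts in the mutant comparisons. At an FDR of 1%, 5 of them were called in Ago2 ADH, 1 higher and 4 lower, where 40.7% of all transcripts were called, 20.5% higher and 20.1% lower. In Ago2 null 4 were called, 1 higher and 3 lower, against 37.2% of all transcripts (18.1% higher, 19.1% lower). In Dicer KO again 4 were called, 1 higher and 3 lower, against 34.5% of all (16.7% higher, 17.8% lower). The Ago2 ADH and Ago2 null comparisons share the Ago2 fl/fl libraries. In each comparison Stat5a was the gene that rose, and Il6st, Jak1 and Jak2 fell.

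Stat5a encodes a related factor that acts downstream of prolactin, growth hormone and several cytokines. Its level was 9.40, 9.14 and 9.85 CPM in Ago2 fl/fl, 17.3, 16.2 and 16.9 CPM in Ago2 ADH, and 16.7 and 19.1 CPM in Ago2 null. Among the Dicer libraries it was 7.17, 6.62 and 6.29 CPM in WT and 13.4, 13.6 and 13.2 CPM in KO. The control and mutant libraries did not overlap in either set. It rose 1.83-fold in Ago2 ADH (edgeR adjusted p = 5.13e-07), 1.93-fold in Ago2 null (edgeR adjusted p = 2.47e-06) and 2.00-fold in Dicer KO (edgeR adjusted p = 9.47e-06). The other Stat5a transcript, NM_001164062, had nearly the same fold changes.

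In absolute terms the gain of Stat5a was small beside that of its neighbour. It amounted to 7.33 CPM in Ago2 ADH, where Stat3 gained 380.0 CPM, and so to 1.93% of the Stat3 gain. The same share was 2.37% in Ago2 null and 2.00% in Dicer KO. The libraries were not stranded. In RefSeq, by which reads were counted, the ends of the genes do not meet, and in GENCODE M21 they share the 72 bases given above, where reads of the pair cannot be told apart. The part of Stat3 reads in the Stat5a increase was not tested.

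Stat5b, the close paralogue of Stat5a that adjoins it on the other side, was scarcely detected. Its counts ran from 1 to 23 per library, or 0.0238 to 0.748 CPM, and it failed the filter in the mutant comparisons. The highest values, 0.748 CPM in 1 Dicer KO library and 0.463 CPM in 1 Ago2 ADH library, stood well apart from the other libraries of those groups. Stat5a and Stat5b are alike in sequence over most of the coding region. Reads that match both equally would fall in the tally of alignments that hit several places, which was left out. Such reads would count for neither gene.

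Jak2 was the more abundant of the kinases. It was at 474.8, 473.7 and 458.3 CPM in Ago2 fl/fl, 354.3, 402.2 and 360.3 CPM in Ago2 ADH, and 358.5 and 413.0 CPM in Ago2 null. The Dicer WT libraries were at 493.8, 485.5 and 485.7 CPM and the Dicer KO libraries at 357.3, 347.5 and 322.5 CPM. No mutant library reached the level of its controls. The decrease was 1.22-fold in Ago2 ADH (edgeR adjusted p = 7.46e-05) and 1.43-fold in Dicer KO (edgeR adjusted p = 8.00e-07). In Ago2 null it was 1.19-fold (edgeR adjusted p = 0.00290), a call that was lost without Ago2 null replicate 1 (adjusted p = 0.0593), without Ago2 fl/fl replicate 2 (adjusted p = 0.0255) and without Ago2 fl/fl replicate 3 (adjusted p = 0.0114).

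Jak1, the kinase most closely tied to Il6st, fell by a similar margin. Its mean was 173.9 ± 7.55 CPM in Ago2 fl/fl (SD, n = 3). It was 140.0 ± 2.27 CPM in Ago2 ADH (n = 3), against 132.9 ± 5.62 CPM in Ago2 null (n = 2). Dicer oocytes had 221.7 ± 14.4 CPM (SD, n = 3) in WT and 175.2 ± 3.85 CPM (SD, n = 3) in KO. The Dicer KO level therefore lay close to that of Ago2 fl/fl, and the decrease is seen only against the WT oocytes of the same set. The fold decreases were 1.20, 1.28 and 1.27 in Ago2 ADH, Ago2 null and Dicer KO, and all 3 were called by edgeR.

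Il6st, the receptor chain shared by the interleukin-6 family, fell in every mutant. It was at 108.0, 110.9 and 108.9 CPM in Ago2 fl/fl, 83.3, 79.3 and 79.6 CPM in Ago2 ADH, and 82.6 and 74.1 CPM in Ago2 null. Among the Dicer libraries it was 106.7, 121.1 and 117.4 CPM in WT and 80.7, 88.2 and 73.2 CPM in KO. The groups did not overlap. The decrease was 1.31-fold (edgeR adjusted p = 6.66e-06), 1.36-fold (edgeR adjusted p = 3.89e-05) and 1.43-fold (edgeR adjusted p = 1.90e-05) in Ago2 ADH, Ago2 null and Dicer KO, and it held without any single library.

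Lifr, which pairs with Il6st to bind Lif, was rarer and less uniform. It was at 6.10, 6.09 and 6.15 CPM in Ago2 fl/fl, 4.32, 3.73 and 3.70 CPM in Ago2 ADH, and 5.56 and 4.57 CPM in Ago2 null. Dicer oocytes had 7.43, 5.97 and 4.15 CPM in WT and 3.87, 4.59 and 3.48 CPM in KO, and here the groups overlapped. Only the 1.51-fold decrease in Ago2 ADH was called (edgeR adjusted p = 0.00189), and the shorter transcript NM_001113386 was not called there (log2 change -0.40, edgeR adjusted p = 0.0790). In Ago2 null the log2 change was -0.24 (edgeR adjusted p = 0.216). In Dicer KO it was -0.56 (edgeR adjusted p = 0.0455), and it passed without Dicer WT replicate 3 (adjusted p = 0.00989).

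In the Dicer set this shorter transcript did not follow the longer NM_013584. Its counts were 72.4 ± 3.06% (SD, n = 3) of those of the longer transcript in Dicer WT and 107.9 ± 20.2% (SD, n = 3) in Dicer KO, with ranges of 70.0 to 75.9% and 94.1 to 131.1%. The mean ratio in the Ago2 set was 54.0% in fl/fl, 61.6% in ADH and 56.2% in null. The log2 change of the shorter transcript in Dicer KO was 0.01 (SE 0.22). It was singled out after its values were seen, and since most exons are shared many of its counts can be those of the longer form. In Dicer KO replicate 3 the shorter transcript had 160 counts and the longer 122, so there not all were shared.

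The inhibitors did not pass the test. Socs3, the feedback inhibitor that targets receptor and kinase, was at 1.80 to 2.23 CPM in Ago2 fl/fl and 2.37 to 3.19 CPM in Ago2 ADH, a log2 change of 0.53 (edgeR adjusted p = 0.0395). It was at 2.06 to 2.65 CPM in Ago2 null (log2 change 0.27, edgeR adjusted p = 0.382), and at 1.35 to 1.69 CPM in Dicer WT against 1.17 to 1.56 CPM in Dicer KO (log2 change -0.10, edgeR adjusted p = 0.820). The 95% intervals of the log2 change were 0.09 to 0.97, -0.25 to 0.78 and -0.76 to 0.56. Whether Socs3 RNA followed the level of Stat3 was not tested.

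Pias3, which binds activated Stat3 in the nucleus, had 4 to 103 counts per library. It was at 0.724 to 0.861 CPM in Ago2 fl/fl, 1.02 to 1.23 CPM in Ago2 ADH, and 1.84 and 1.37 CPM in Ago2 null. The log2 change was 0.55 in Ago2 ADH (edgeR adjusted p = 0.150) and 1.06 in Ago2 null (edgeR adjusted p = 0.0125), the latter passing when low counts were not filtered (adjusted p = 0.00753). In the Dicer set the KO libraries scattered from 0.130 to 0.996 CPM around the WT range of 0.453 to 0.772 CPM. The lowest, Dicer KO replicate 1, had 4 counts, beside 28 and 24 in the others of its group. The log2 change was -0.08 (95% interval -1.24 to 1.09, edgeR adjusted p = 0.927) and was not called.

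**Figure D2:**
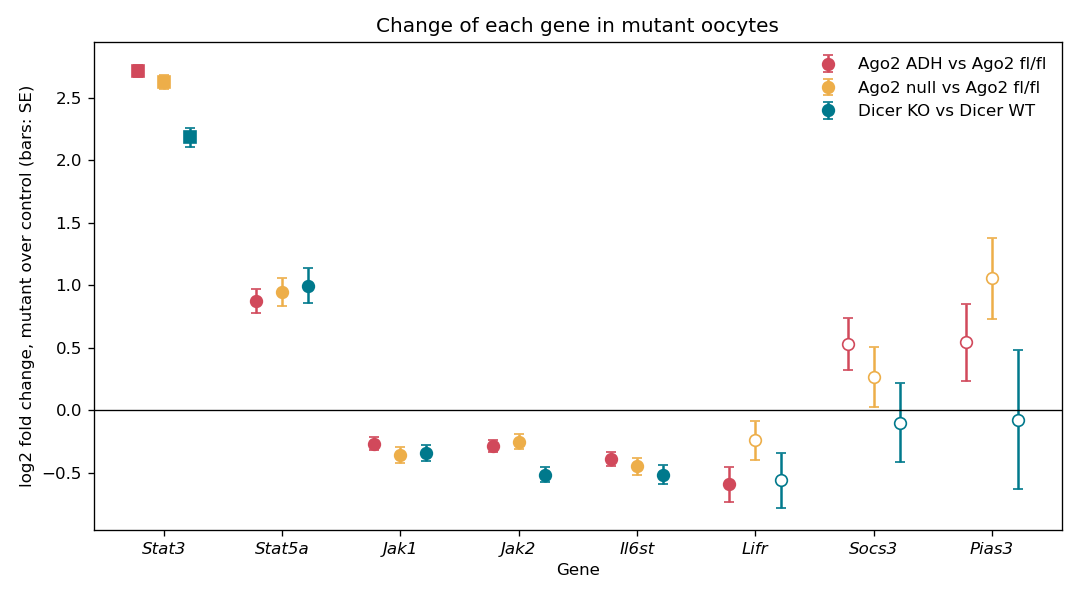
Fitted log2 fold change of mutant over control (vertical axis) with its SE for Stat3 and the 7 other genes that passed the filter, in the 3 mutant comparisons; circles are filled where the adjusted p was under 0.01, and the squares for Stat3 carry no test. Stat3 is between 2.18 and 2.72, Stat5a between 0.87 and 1.00, and Jak1, Jak2 and Il6st between -0.52 and -0.25.

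Levels were compared between genes only after division by transcript length (CPM per kilobase). In Ago2 fl/fl oocytes the order was Jak2 at 93.2 ± 1.84 (SD, n = 3), Jak1 at 35.5 ± 1.54, Stat3 at 15.7 ± 0.133, Il6st at 12.6 ± 0.170, Stat5a at 2.43 ± 0.092, Lifr at 1.80 ± 0.010, Socs3 at 0.783 ± 0.084, Pias3 at 0.268 ± 0.024 and Stat5b at 0.016 ± 0.006 CPM per kilobase. Each step in that order was wider than the SDs of its neighbours with these lengths. Dicer WT oocytes kept the order, except that Stat5a and Lifr, both at 1.72 CPM per kilobase, did not differ beyond their spread. The kinases thus stood above the transcription factor they phosphorylate, and the Lif-binding chain stood below the shared chain.

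In the mutants Stat3 came level with Jak2 or above it, depending on which paired length its counts were divided by. With NM_213659 it reached 99.8 ± 1.44 CPM per kilobase in Ago2 ADH, where Jak2 was at 74.0 ± 5.19, and 95.3 ± 5.46 in Dicer KO, where Jak2 was at 68.1 ± 3.57. In Ago2 null it was at 94.6 ± 2.60 against 76.7 ± 7.66 for Jak2. Among 20241 genes ranked by CPM per kilobase, 83.2% were lower than Stat3 in Ago2 fl/fl and 97.1% in Ago2 ADH. Lengths were those of the GENCODE transcripts paired with the RefSeq IDs, and can differ from those of the counted RefSeq records. The 3 Stat3 transcripts had nearly equal counts but paired lengths of 4516, 2927 and 6042 bases. The counted length of Stat3, and so its place beside Jak2 and Il6st, was therefore not settled. With the next transcript in place of the main one, the Ago2 fl/fl level was 24.1 in place of 15.7 CPM per kilobase for Stat3 and 1.16 in place of 1.80 for Lifr. With the longest Stat3 transcript, NM_011486, a choice made after seeing the data, Stat3 was at 11.7 CPM per kilobase in Ago2 fl/fl, below Il6st. It was then at 74.3 ± 1.09 in Ago2 ADH, 70.5 ± 1.92 in Ago2 null and 71.0 (68.3 to 75.6) in Dicer KO, each mean within 1 SD of that of Jak2 in the group.

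**Figure D3:**
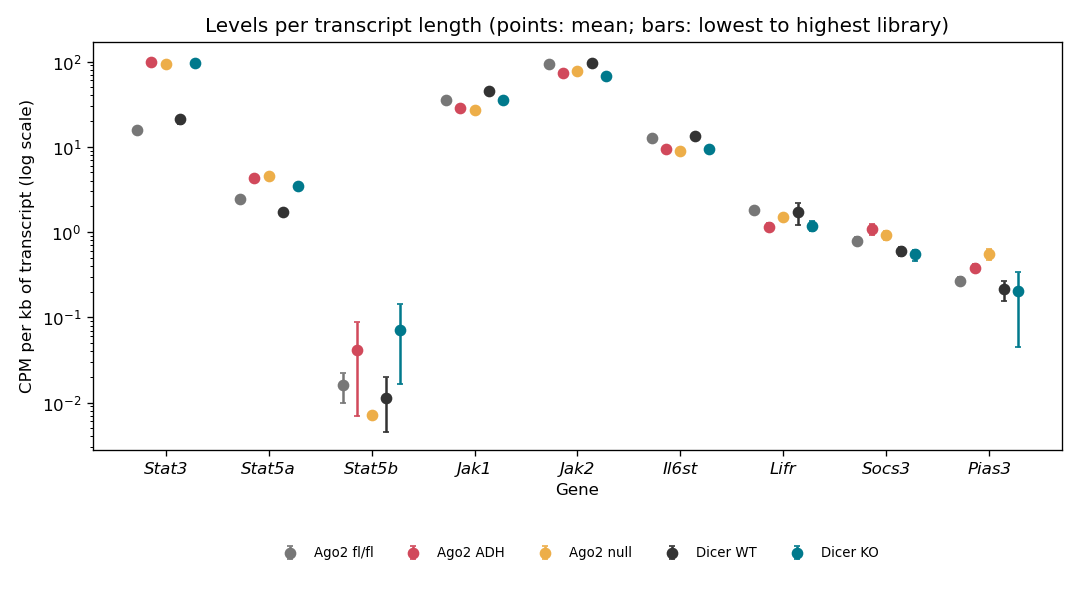
Mean CPM per kilobase of transcript (vertical axis, log scale) of the 9 genes in the 5 groups, with bars from the lowest to the highest library. Stat3 rises from 15.7 and 20.9 in the control groups to between 94.6 and 99.8 in the mutants, past Jak2 with the length of NM_213659 used here, whereas the means of Stat5b lie between 0.0071 and 0.071.

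The mutants were also compared with each other. None of the 8 genes tested, Stat3 included, differed between Ago2 ADH and Ago2 null by edgeR at an FDR of 1% or by DESeq2, in a comparison where 0.119% of all transcripts were called and 1931 of 19306 had an unadjusted p under 0.05. The log2 difference of Stat3 was 0.08 (95% interval -0.05 to 0.20, edgeR adjusted p = 0.722), so that a difference in either direction beyond 0.20 lies outside the interval. For Lifr it was -0.37 (95% interval -0.75 to 0.01, edgeR adjusted p = 0.508), and for Pias3 -0.53 (95% interval -1.17 to 0.11, edgeR adjusted p = 0.590).

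Whether the Ago2 ADH effect differed from the Dicer KO effect was tested as an interaction, in which 3.55% of all transcripts were called. None of the 8 genes other than Stat3 was called by edgeR or by DESeq2, whereas 4550 of 19500 transcripts had an unadjusted p under 0.05. The estimate for Jak2 was 0.18 (95% interval 0.02 to 0.34, edgeR adjusted p = 0.163) and that for Socs3 0.58 (95% interval -0.13 to 1.29, edgeR adjusted p = 0.322). The intervals were of like width for Il6st, at 0.08 (95% interval -0.12 to 0.27), and Jak1, at 0.02 (95% interval -0.14 to 0.19). For Stat3, given without a test, the Ago2 ADH change was 0.48 larger on the log2 scale than the Dicer KO change.

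Around these genes, 122 other genes of the Jak-Stat pathway were listed by role. In Ago2 ADH 82 of them were tested, and 14 rose and 17 fell, or 37.8% against the 40.7% of all transcripts. In Ago2 null 11 rose and 18 fell of 84 (34.5%), and in Dicer KO 13 rose and 11 fell of 81 (29.6%). The median log2 change of the list was -0.0047, 0.018 and 0.036, beside 0.0069, 0.0018 and -0.0044 over all transcripts tested. The share called was thus near the background in each comparison.

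Ligands were mostly at or below the detection limit. Of 26 cytokines and hormones 9, 10 and 10 passed the filter in the 3 comparisons. Lif had at most 5 counts in any Ago2 library and 13 to 30 counts in the Dicer libraries, and Osm, the oncostatin M gene, had none in any library. Il7, which supports lymphocyte growth, was well detected, at 69.8 ± 1.56 CPM (SD, n = 3) in Ago2 fl/fl. Its log2 change in Ago2 ADH was -0.23 (edgeR adjusted p = 0.00475), a call that was lost without any 1 of the libraries except Ago2 ADH replicate 3 (adjusted p = 0.0126 to 0.0246). Tslp, an epithelial cytokine, fell by 2.16 in Ago2 ADH (edgeR adjusted p = 2.00e-04) and by 1.51 in Ago2 null (edgeR adjusted p = 0.00151) from 1.59 CPM in Ago2 fl/fl, and its log2 change in Dicer KO was -1.39 (edgeR adjusted p = 0.0478). Its call in Ago2 null was lost without replicate 1 of that group (adjusted p = 0.0138). Ctf2, a cardiotrophin of the Lif family, rose in Ago2 ADH and Dicer KO at means of no more than 1.49 CPM. At that level the calls of Ctf2 depended on single libraries, with adjusted p up to 0.0335 in Ago2 ADH without its replicate 3 and up to 0.0207 in Dicer KO without its replicate 3.

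Of 18 receptors tested, 3 rose and 3 fell in Ago2 ADH, 3 rose and 5 fell in Ago2 null, and 4 rose and 3 fell in Dicer KO. These are 33.3, 44.4 and 38.9%, beside 40.7, 37.2 and 34.5% of all transcripts. Prlr, the prolactin receptor, fell in all 3, from 105.8 to 55.4 CPM in Ago2 ADH, to 56.0 CPM in Ago2 null, and from 142.5 to 75.1 CPM in Dicer KO. Il2rb and Il4ra, chains of the interleukin-2 and interleukin-4 receptors, fell in all 3 as well, with log2 changes of -0.94, -1.12 and -1.45 for Il2rb and of -1.51, -1.65 and -2.31 for Il4ra. The Il4ra call in Ago2 null was lost without Ago2 fl/fl replicate 1 (adjusted p = 0.0116) and without Ago2 null replicate 2 (adjusted p = 0.0285). Csf3r, the receptor for granulocyte colony-stimulating factor, rose in Dicer KO (log2 change 1.08, edgeR adjusted p = 0.00656), a call lost on leaving out any 1 library of that set. Its log2 change was 0.71 in Ago2 ADH and 0.80 in Ago2 null, neither of them called.

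Of 6 genes of the Socs family of negative regulators tested beside Socs3, 3 fell in each Ago2 mutant, and 2 fell and 1 rose in Dicer KO, where 20.1, 19.1 and 17.8% of all transcripts were called lower. With 6 genes these counts say little about the family. Socs5 had log2 changes of -0.52, -0.86 and -1.06 in the 3 mutants, and Socs4 of -0.66, -0.55 and -0.63, all of them called. Both act on cytokine and growth factor receptors. The Socs4 call was lost in Ago2 null without its replicate 1 (adjusted p = 0.0108) and in Dicer KO without WT replicate 1 (adjusted p = 0.0124). Socs6 fell by 0.46 in both Ago2 mutants, and in Dicer KO its log2 change was -0.28 (edgeR adjusted p = 0.0138), passing without WT replicate 2 (adjusted p = 0.00825) or KO replicate 1 (adjusted p = 0.00418). Socs7 rose in Dicer KO, from 111.7 ± 6.73 to 156.4 ± 12.3 CPM (SD, n = 3 in each group). The interaction of its Ago2 ADH and Dicer KO effects was called (log2 difference -0.50, edgeR adjusted p = 0.00153).

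Among the nuclear regulators, Pias1, a SUMO ligase, rose by 0.46, 0.42 and 0.46 on the log2 scale from a high level of 302.8 CPM in Ago2 fl/fl and 357.7 CPM in Dicer WT. Crebbp, an acetyltransferase coactivator, fell by 0.23 in Ago2 ADH and by 0.43 in Ago2 null, Sirt1, a deacetylase, fell by 0.46 in Dicer KO, and Hdac3, a histone deacetylase, rose by 0.45 in Ago2 ADH. Of the phosphatases, Ptprj fell by 0.34, 0.54 and 0.59 in the 3 mutants, and Ptprt, whose substrates include Stat3, rose by 0.45 in Ago2 ADH and 0.68 in Dicer KO. In the adaptor group Stam, Stam2 and Shc1 rose in all 3 and Sh2b3, an inhibitor of Jak2, fell in all 3. Stam had the highest changes of these, at 1.36, 1.32 and 0.79. Less secure were the calls of Hdac3 in Ago2 ADH, lost without Ago2 fl/fl replicate 3 (adjusted p = 0.0260) or Ago2 ADH replicate 1 (adjusted p = 0.0151), and in Dicer KO those of Sh2b3, lost without any 1 library but WT replicate 1 (adjusted p up to 0.0383), and of Stam2, lost without WT replicate 2, KO replicate 2 or KO replicate 3 (adjusted p up to 0.0161).

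Among other Stat genes, Stat4 rose by 0.32 in Ago2 null (edgeR adjusted p = 0.00215) and by 0.27 in Dicer KO (edgeR adjusted p = 0.00490), and its log2 change in Ago2 ADH was 0.22 (edgeR adjusted p = 0.0202). The call in Ago2 null was lost without Ago2 fl/fl replicate 2 (adjusted p = 0.0149) or Ago2 null replicate 1 (adjusted p = 0.0124), and that in Dicer KO without any 1 library but KO replicate 3 (adjusted p up to 0.0300). Stat2 and Stat6 were not called in any mutant.

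Of 25 genes known as Stat3 targets in other cells, 17 were tested in Ago2 ADH, and 3 rose and 4 fell. In Ago2 null 2 rose and 3 fell of 18, and in Dicer KO 1 rose and 3 fell of 16. The shares called were 41.2, 27.8 and 25%, beside 40.7, 37.2 and 34.5% of all transcripts. The median log2 change was -0.15, -0.26 and -0.11. Tfcp2l1, a pluripotency factor downstream of Lif and Stat3 in embryonic stem cells, rose by 1.40, 1.35 and 1.17. Nfkbiz, an inducible regulator of inflammatory genes, fell by 1.59, 1.28 and 1.64, from 53.1 to 17.1 CPM in Ago2 ADH and from 76.1 to 24.4 CPM in Dicer KO. Mcl1, an antiapoptotic gene, rose in Ago2 ADH (log2 change 1.15, edgeR adjusted p = 2.45e-08) and in Ago2 null (log2 change 1.05, edgeR adjusted p = 1.82e-06), and its log2 change in Dicer KO was 0.02 (edgeR adjusted p = 0.954). Bcl6, a transcriptional repressor, fell by 0.68 in Ago2 ADH and was not called in the other mutants.

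**Figure D4:**
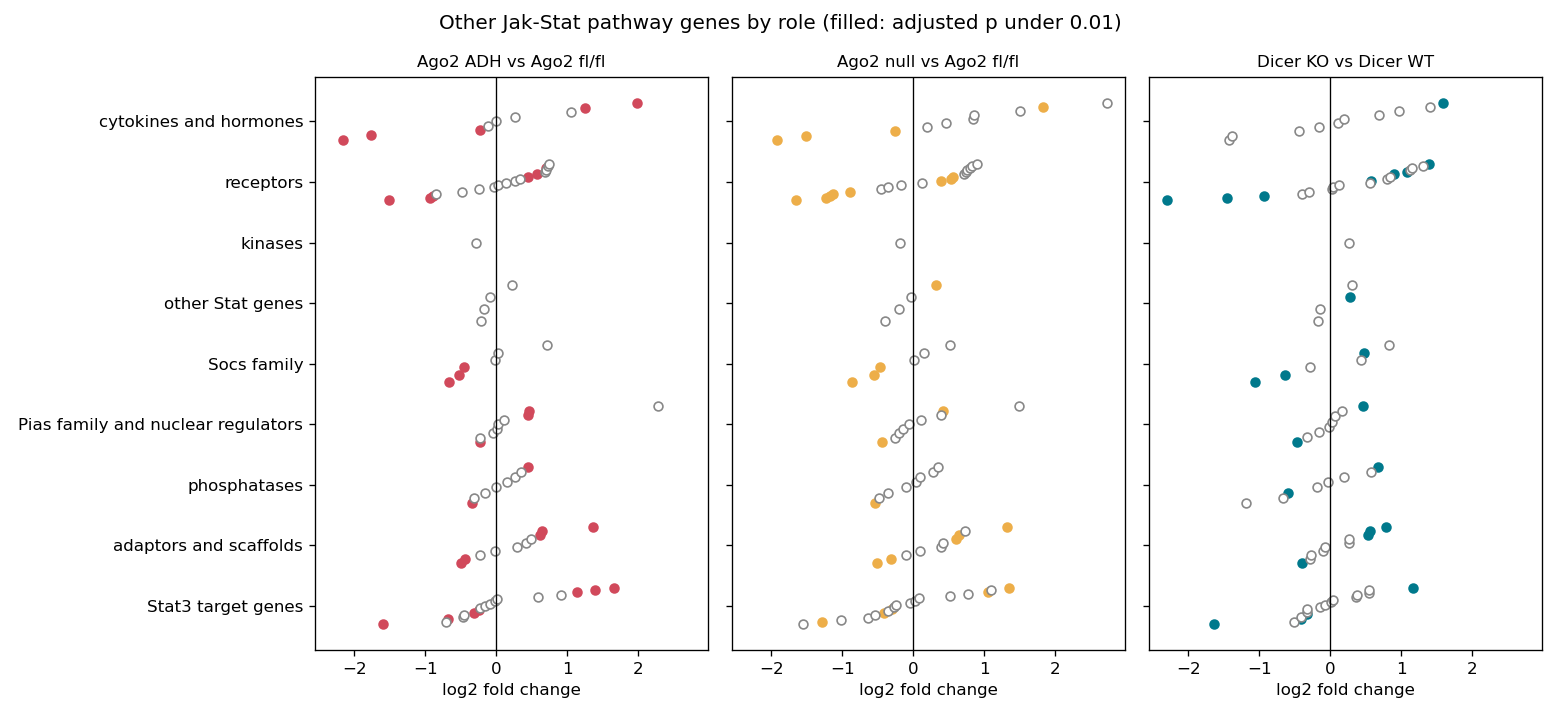
Log2 fold change of mutant over control (horizontal axis) of each tested gene of the 122 other pathway genes, grouped by role (vertical axis), in the 3 mutant comparisons; filled points had an adjusted p under 0.01. Changes lie on both sides of 0 in most roles, and 14 genes rose and 17 fell in Ago2 ADH against 13 and 11 in Dicer KO.

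Neighbouring genes were examined because Stat3 and Stat5a adjoin. Of 17 genes whose lower coordinate lies within 250 kb of that of Stat3, 10 were tested in all 3 comparisons. In Ago2 ADH 4 rose and 1 fell, in Ago2 null 2 rose and 1 fell, and in Dicer KO 3 rose and none fell. Of all transcripts 20.5, 18.1 and 16.7% were called higher and 20.1, 19.1 and 17.8% lower. With 10 genes these counts say little about the region. Stat5a and Mlx, a partner of glucose-responsive transcription factors, rose in all 3, Mlx by 0.58, 0.73 and 0.92 on the log2 scale at a distance of 199.9 kb. Cavin1, the nearest gene on the other side of Stat3, was at no more than 1.22 CPM. It was tested in the Ago2 comparisons only and was not called, with log2 changes of -0.80 and -0.79. Kat2a and Retreg3, counted as rising in Ago2 ADH, lost their calls on leaving out most single libraries, with adjusted p up to 0.0440 for Kat2a and 0.0504 for Retreg3. Atp6v0a1, a proton pump subunit that fell in both Ago2 mutants, lost its call in Ago2 null without Ago2 fl/fl replicate 1 or 3 and without either Ago2 null library (adjusted p up to 0.0421). Among the 10 genes the highest change was the 1.00 of Stat5a in Dicer KO. Hsd17b1, a steroid dehydrogenase gene tested in the Ago2 comparisons only, had a log2 change of 1.36 in Ago2 ADH (edgeR adjusted p = 0.0179) at no more than 0.743 CPM, and was not called.

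**Figure D5:**
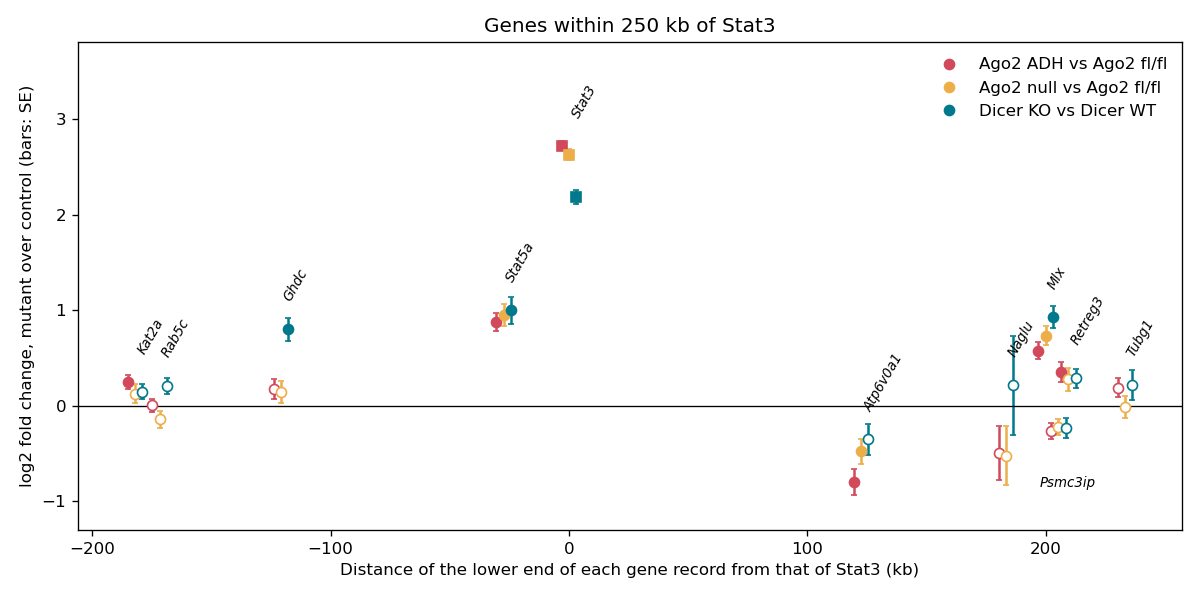
Log2 fold change with its SE (vertical axis) of Stat3 (squares, no test) and of the 10 neighbouring genes tested in all 3 comparisons, by distance of the lower end of the gene record from that of Stat3 in kb (horizontal axis; the comparisons are offset slightly); filled circles had an adjusted p under 0.01. Stat3 is above 2 in each comparison, and the neighbours lie between -0.80 and 1.00.

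The genes whose log2 CPM followed Stat3 most closely over the 14 libraries, out of 14938 genes, were Vav3 (Pearson r = 0.997), Tstd3 (r = 0.997), Btbd9 (r = 0.997), Parp4 (r = 0.995) and Ubxn2b (r = 0.995). Btbd9, Parp4 and Ubxn2b had changes of the size of that of Stat3, at 2.41, 2.49 and 2.50 in Ago2 ADH. Vav3, a guanine nucleotide exchange factor, and Tstd3 went up from much lower levels, Tstd3 from 1.14 CPM in Ago2 fl/fl to 98.1 CPM in Ago2 ADH. Within the set, Pearson r with Stat3 was 0.867 for Stat5a, -0.927 for Il6st, -0.901 for Jak2, -0.759 for Lifr and -0.675 for Jak1. It was 0.279 for Socs3 and 0.174 for Pias3. All of these values are descriptions over libraries that fall into control and mutant groups, and they mainly restate that division.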

How the data were processed

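Total RNA of 20 oocytes per library was amplified with a kit that does not mark strand. Per the labels and the study's methods, the authors aligned reads to mm10 with TopHat2, keeping multiple alignments, and made the deposited read counts per RefSeq transcript with htseq-count without strand; alignment settings differed for shorter and longer reads, and which libraries had which is not given in the sources used here; versions listed in the submitters' processing notes are TopHat2 2.0.7, HTSeq 0.6.1 and DESeq 1.10.0. The 5 tallies at the end of each file, which took 34.0 to 65.0% of all counts and tallies together, were left out.

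Symbols came from RefSeq (GRCm38.p6) for 26081 of 26495 transcripts and from GENCODE M21 for 113, and 301 had none. Transcripts were filtered with filterByExpr (minimum count 10, minimum total 15), scaled by TMM and tested with edgeR 4.0.16 (R 4.3.3) by quasi-likelihood on the libraries of the groups compared, with Benjamini-Hochberg adjustment over all transcripts and an FDR of 1%. An interaction term compared Ago2 ADH with Dicer KO, each against its control. Intervals used the t distribution with the degrees of freedom of that test. The script was checked on simulated counts. DESeq2 1.42.0, RLE scaling, no filter, an FDR of 5%, 1 transcript per gene, 1 fit of all groups, a replicate block and leaving out each library were tried. Libraries of a group differed by more than counting noise, with chi-square per degree of freedom of 6.54 to 14.9. Per the study's methods each library pooled 3 or 4 mice and each group was collected repeatedly, so p-values measure the spread between pooled collections.

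The 9 genes, the gene lists and the tests were chosen with earlier results of these data known. Genes are named by rule: all 9; up to 4 pathway genes per role with the largest mean change among those tested in all 3 mutant comparisons, called in at least 1 and at 50 or more normalized counts; neighbours within 250 kb; the 5 genes most correlated with Stat3; Ago2 and Dicer1. A few others are named because a count or a marked feature turned on them, after their values were seen. Pearson r used log2 CPM with a prior count of 2.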

Additional observations from a re-analysis of the deposited data

Results flagged for a closer look

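The effects of Ago2 ADH and Dicer KO, each against its own control, differed by the interaction test for 5 genes, of which Lepr and Ghdc were chosen after their values were seen. Over the pathway list 3 of 85 genes (3.53%) were called, beside 3.55% of all transcripts. Mcl1 had a difference of 1.08 on the log2 scale (edgeR adjusted p = 0.00536), rising from 9.38 to 11.6 CPM in Ago2 fl/fl to 21.8 to 24.5 CPM in Ago2 ADH, whereas Dicer WT (15.1 to 21.2 CPM) and Dicer KO (11.9 to 24.4 CPM) overlapped. Its adjusted p lay between 6.74e-05 and 0.0224 over 19 fits and passed in 11 of them. Lepr, the leptin receptor, had a difference of -0.99 (edgeR adjusted p = 2.64e-05), with log2 changes of 0.45 in Ago2 ADH and 1.39 in Dicer KO, and Socs7 one of -0.50 (edgeR adjusted p = 0.00153). Both passed in all 19 fits. Ghdc, a neighbour of Stat5b, had a difference of -0.67 (edgeR adjusted p = 0.00700), which passed in 8 of 19 fits. Dicer1 had a difference of -0.63 (edgeR adjusted p = 4.51e-06), with log2 changes of 0.67 in Ago2 ADH and 1.26 in Dicer KO, and its Dicer KO total includes exons outside the deletion.

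In the tallies, which no comparison used, alignments with several hits were again set against all counts and tallies together. They made up 57.7% in Ago2 ADH and 57.6% in Ago2 null on average, against 33.7% in Ago2 fl/fl. The mean was 46.3% in Dicer KO against 28.4% in Dicer WT. Only groups of 2 or 3 libraries were present, so single libraries were not screened against the rest of their group.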

How the results depend on the processing

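In 140 of 142 refits the counts of called genes stayed within 1.5 times, and the Stat3 changes within 1 SD between libraries, of the reported values. At an FDR of 5% the pathway genes called in Dicer KO were 39 in place of 24, and with all groups in 1 fit the Stat3 change in Ago2 ADH was 2.67 in place of 2.72, a move beyond that SD of 0.024. The cause was not tested for the latter. Leaving out each library in turn gave Stat3 log2 changes of 2.70 to 2.74 in Ago2 ADH, 2.60 to 2.65 in Ago2 null and 2.11 to 2.22 in Dicer KO, and left 5 called genes of the set in Ago2 ADH, 3 to 4 in Ago2 null and 4 to 5 in Dicer KO. With fewer libraries 27 to 30, 21 to 27 and 19 to 23 pathway genes were called.

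The replicate numbers did not pair the libraries (correlations of deviations between -0.0852 and 0.0426). With a replicate block, 5, 3 and 4 genes of the set were called in Ago2 ADH, Ago2 null and Dicer KO, the loss being Jak2 in Ago2 null (adjusted p = 0.0115), and 30, 27 and 21 pathway genes.

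Signs turned only for changes that were not called. The Socs7 change in Ago2 ADH was -0.017 with all groups in 1 fit, that of Rab5c was -0.041 in that fit and -0.0045 without the filter, and that of Mcl1 in Dicer KO was -0.021 with the replicate block. On leaving out single libraries, the log2 changes in Ago2 ADH ranged from -0.0052 to 0.071 for Socs7 and from -0.023 to 0.036 for Rab5c, and those in Ago2 null from -0.016 to 0.32 for Socs7, -0.077 to 0.31 for Kat2a and -0.070 to 0.096 for Tubg1. In Dicer KO they ranged from -0.18 to 0.019 for Socs3, -0.61 to 0.40 for Pias3, -0.25 to 0.25 for Mcl1, -0.12 to 0.043 for Hdac3 and -0.24 to 0.74 for Naglu. Between Ago2 ADH and Ago2 null they ranged from -0.038 to 0.13 for Il6st, -0.15 to 0.049 for Jak2 and -0.18 to 0.0074 for Stat5a. In the interaction they ranged from -0.29 to 0.11 for Lifr and -0.025 to 0.075 for Jak1.

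Depth limits Stat5b, Pias3 and most ligands, which had few counts per library. Only 2 libraries represent Ago2 null, and leaving out 1 of them assumes that the lone sample varies like the other group.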
